A study of Mus musculus with 6 samples.

Results

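The interferon-stimulated genes (ISGs) are the genes that a cell switches on when interferon binds its receptors. Type I and type III interferons signal through the kinases JAK1 and TYK2 to a complex that holds STAT2 and IRF9 and binds the interferon-stimulated response element, and interferon gamma signals through JAK1 and JAK2 to factors that bind the gamma activated site. The products sense viral nucleic acid, block steps of virus growth, attack vacuoles that hold intracellular microbes and amplify or end the interferon signal itself, and many of them are also made at a basal level without infection. A list of 44 ISGs, taken by symbol, was followed here among the 22911 genes with a named probe on the array. Of these, 41 had at least 1 probe named through its RefSeq accession (58 probes in all) and 40 had a probe that read well above background in 1 or both cell types on each of its 3 arrays. Mx1, Mx2 and Ifitm2 had no named probe here, and the probe of Oas3 was well above background on none of the 6 arrays.

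The signals came from endothelial cells of the small intestine of female mice, of blood vessels (vascular endothelial cells, VECs) and of lymph vessels (lymphatic endothelial cells, LECs), which were sorted as CD45- CD31+ cells that lacked CD90 (VECs) or carried it (LECs). There were 3 arrays a group, named VEC 2, 3 and 4 and LEC 6, 7 and 8 in the titles; a description line calls all 6 VECs, and the titles and source names were followed. No treatment, genotype or age is given for either group, and the strain behind these arrays is not given in the sources used here, nor whether each sample is a mouse of its own, so that p-values measure only the spread between these samples, which may be technical. The defining markers were on the side of the labels. The 4 lymphatic markers (Prox1, Lyve1, Pdpn, Flt4) were all higher in LECs and the 4 blood vascular markers (Flt1, Ly6c1, Plvap, Esm1) all lower, with summed blood vascular signals of 1240 to 1340 for VECs and 28.7 to 39.3 for LECs, in multiples of the 75th percentile of an array. All 6 arrays were on 1 slide, where row 1 held the VEC arrays plus LEC 6, and row 2 the other LEC arrays. A value within slide row 1 therefore sets LEC 6 alone against the VEC arrays; its p takes the spread from the VEC arrays and from LEC 7 and LEC 8, and assumes that LEC 6 varies like them. The arrays held 30929 (LEC 7) to 35510 (LEC 6) probes well above background of 56605. VEC 2 and VEC 3 differed by a median of 0.067 (log2) over probes above background on all arrays, against 0.11 to 0.14 in the other pairs of one group.

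The ISGs did not move together between VECs and LECs. Of the 40 tested, 10 were higher in LECs and 14 lower, and for 16 the test was not passed (limma, Benjamini-Hochberg adjusted p below 0.05 over all probes tested). Over all 14971 genes tested, 66.9% passed in either direction, 34.9% higher and 32.0% lower in LECs, so that the 24 ISGs that passed are a share of 60% beside that background. Differences over 2-fold were found for 3 ISGs higher in LECs and 7 lower, beside 12.0% and 13.1% of all genes. The median difference, LEC minus VEC on the log2 scale, was -0.186 over the 40 ISGs and 0.017 over all genes, and the median size of a difference was 0.555 and 0.464. Without scaling between arrays, where the median of all genes was 0.24, the counts turned to 12 higher and 10 lower. Without LEC 7 the counts were 7 higher and 19 lower, and without LEC 6 they were 10 higher and 13 lower. The median of all genes was 0.03 and 0.01 without these arrays, and the shares of all genes that passed were not counted there. The higher genes were Zbp1, Ifi44, Gbp2, Usp18, Bst2, Irgm2, Xaf1, Gbp7, Irf8 and Eif2ak2. The lower genes were Oas2, Irf1, Ifitm1, Oasl1, Ifit1, Irgm1, Trim25, Isg15, Rsad2, Isg20, Rtp4, Ifit2, Ifih1 and Trim30a. A signal here is log2 of the processed intensity minus the 75th percentile of its array, so that 0 is the 75th percentile itself, and signals of different probes are not compared. In sorted bulk samples, fewer cells that make a transcript and less transcript per cell cannot be told apart.

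**Figure D1:**
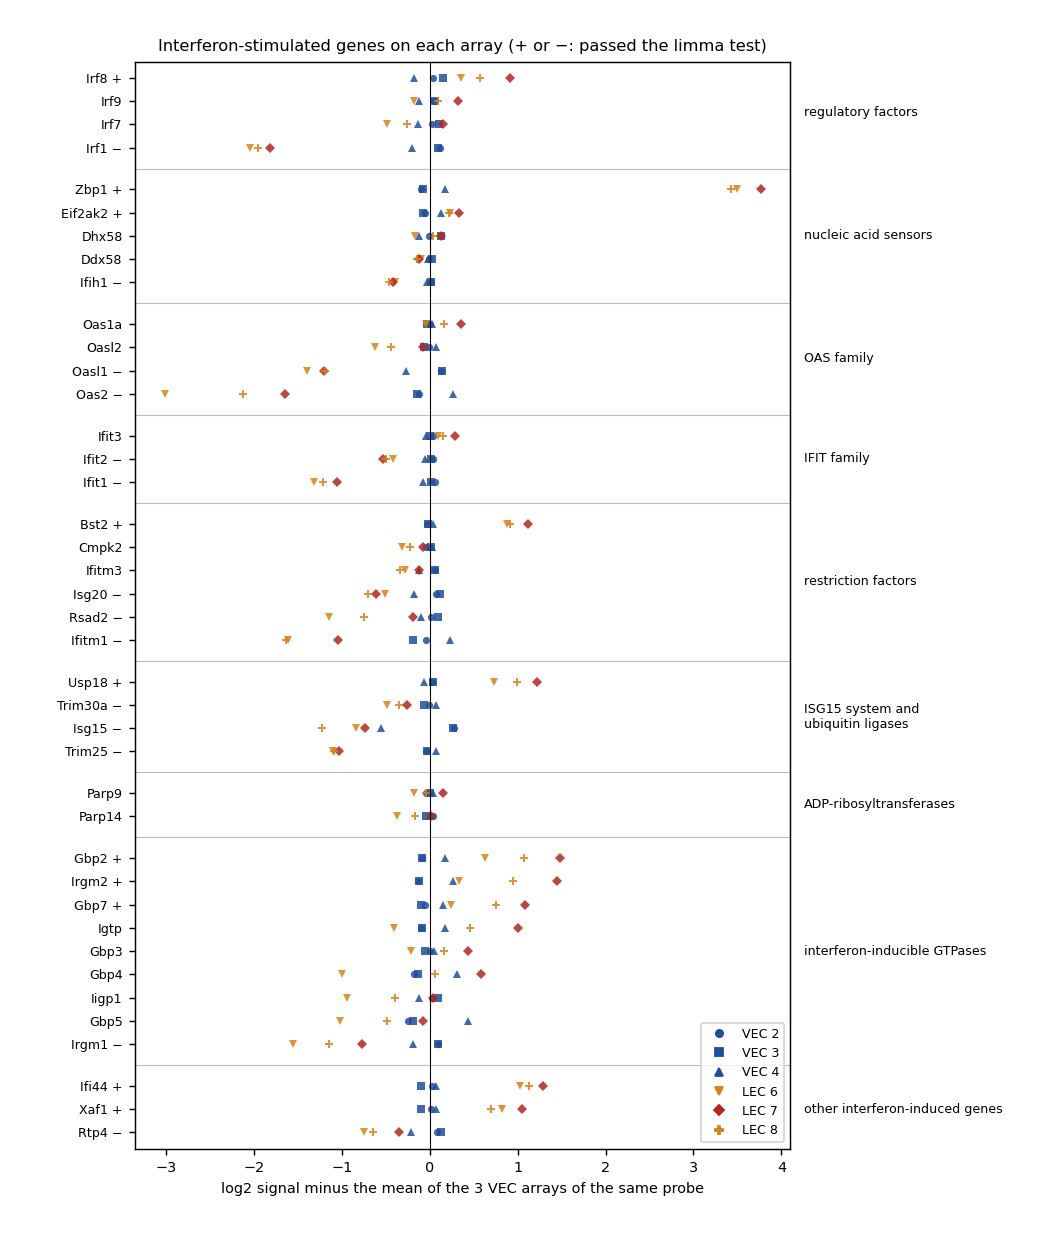
Signal of the 40 tested ISGs on each of the 6 arrays, as the log2 signal minus the mean of the 3 VEC arrays of the same probe (horizontal axis), with 1 gene a row, grouped by role. Blue symbols are VEC arrays, orange and red symbols are LEC arrays, and + or − after a name marks a gene higher or lower in LECs by the limma test; Zbp1 lies farthest to the right, Oas2 and Irf1 farthest to the left, and LEC 7 is the rightmost LEC array for 35 of the 40 genes.

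The promoters of the list were searched for the sites of these factors. The core of the interferon-stimulated response element was searched as GAAANNGAAA on either strand and the gamma activated site as TTCNNNGAA, which is its own reverse complement, in RefSeq windows (GRCm38.p6) from 250 bases before to 50 bases after each start. Windows were given for 33 of the 44 ISGs and 27025 genes in all. The response element core was in a window of 20 of the 33 ISGs (60.6%) and of 4.0% of all genes, and the gamma activated site in 12 (36.4%) and 9.6%. By direction, the core was in 5 of 8 ISGs higher in LECs and in 6 of 12 lower in LECs, and the gamma activated site in 5 of 8 and 3 of 12. A match is a description of letters, not a bound site. The 140 bases before the start are shown for 4 genes lower in LECs that hold the core (Isg15, Ifit1, Rsad2, Irgm1), 4 genes higher in LECs that hold it too (Bst2, Gbp2, Gbp7, Irgm2), and Irf1, which holds only the gamma activated site in this stretch. Each is written 5′ to 3′ on the strand of the gene, with matches in capitals. In Bst2 both kinds of match overlap, and in Isg15, Irgm1 and Bst2 neighboring core matches overlap each other.
Isg15, chr4:156200819-156200958, minus strand: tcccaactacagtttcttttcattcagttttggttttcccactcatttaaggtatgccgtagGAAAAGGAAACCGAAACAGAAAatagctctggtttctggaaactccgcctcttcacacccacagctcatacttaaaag
Ifit1, chr19:34640749-34640888, plus strand: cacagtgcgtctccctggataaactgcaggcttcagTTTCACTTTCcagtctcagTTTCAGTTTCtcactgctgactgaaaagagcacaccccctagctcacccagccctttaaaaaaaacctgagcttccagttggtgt
Rsad2, chr12:26456453-26456592, minus strand: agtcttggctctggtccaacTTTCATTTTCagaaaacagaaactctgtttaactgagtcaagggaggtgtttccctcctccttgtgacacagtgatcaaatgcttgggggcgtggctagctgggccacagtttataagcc
Irgm1, chr11:48871421-48871560, minus strand: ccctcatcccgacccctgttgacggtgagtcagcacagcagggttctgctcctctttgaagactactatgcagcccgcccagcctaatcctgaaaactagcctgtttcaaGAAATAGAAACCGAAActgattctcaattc
Bst2, chr8:71537473-71537612, minus strand: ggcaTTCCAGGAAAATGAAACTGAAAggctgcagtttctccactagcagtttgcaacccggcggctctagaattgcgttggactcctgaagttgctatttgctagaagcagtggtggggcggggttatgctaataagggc
Gbp2, chr3:142620523-142620662, plus strand: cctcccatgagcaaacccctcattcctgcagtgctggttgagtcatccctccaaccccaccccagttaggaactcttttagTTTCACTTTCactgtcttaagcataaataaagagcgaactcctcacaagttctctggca
Gbp7, chr3:142530196-142530335, plus strand: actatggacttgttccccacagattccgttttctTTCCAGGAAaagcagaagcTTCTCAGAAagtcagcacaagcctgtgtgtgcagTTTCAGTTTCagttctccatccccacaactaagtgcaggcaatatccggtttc
Irgm2, chr11:58214837-58214976, plus strand: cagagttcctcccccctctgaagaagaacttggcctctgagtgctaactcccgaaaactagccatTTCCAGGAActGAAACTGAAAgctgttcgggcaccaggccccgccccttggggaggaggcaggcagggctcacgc
Irf1, chr11:53769874-53770013, plus strand: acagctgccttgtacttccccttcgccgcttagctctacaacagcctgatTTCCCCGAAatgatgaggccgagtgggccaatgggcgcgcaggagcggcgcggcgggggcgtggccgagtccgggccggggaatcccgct

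Among the 4 regulatory factors, 1 was higher in LECs (Irf8), 1 was lower (Irf1) and 2 did not pass (Irf7, Irf9). Over all genes, 34.9% were higher and 32.0% lower. Irf1 is a transcription factor that interferon gamma induces, and its match to the gamma activated site is shown above. It read 8.07, 8.05 and 7.75 on VEC 2, 3 and 4 and 5.91, 6.14 and 6.01 on LEC 6, 7 and 8. Every LEC array lay below every VEC array, with a difference of -1.93 ± 0.11 (SE, n = 3 a group), 3.82-fold lower in LECs (limma adjusted p = 3.1e-05). A second Irf1 probe gave -2.12 ± 0.15. Irf8, which directs the growth of dendritic cells and monocytes and also answers interferon gamma, read 2.63, 2.74 and 2.41 in VECs and 2.95, 3.51 and 3.16 in LECs. The groups did not overlap, and LECs had a 1.53-fold higher signal (0.61 ± 0.17, limma adjusted p = 0.018); the adjusted p was 0.056 without VEC 4, and within slide row 1 the difference was 0.35 (adjusted p = 0.19). Beside those shares of all genes, 34.9% and 32.0%, 10 of 15 tested myeloid markers were higher in LECs and 3 lower. The 16 measured ones summed to 80.2 to 85.6 for VECs and 72.1 to 77.7 for LECs, most of it from Itgam, without which the other 15 summed to 5.79 to 6.23 and 7.77 to 8.51. Of the 16, 10 to 16 were well above background on a VEC array and 15 or 16 on a LEC array, and Ptprc, which encodes CD45, was above background on 2 VEC arrays and 2 LEC arrays; their part in the Irf8 difference was not tested. Irf7, the factor that drives interferon alpha genes, read 5.39, 5.47 and 5.23 in VECs and 4.88, 5.52 and 5.10 in LECs. Its groups overlapped (-0.20 ± 0.17, limma adjusted p = 0.34), and without LEC 7 the adjusted p was 0.04. Irf9, the DNA-binding partner of STAT2, read 4.0, 4.01 and 3.83 in VECs and 3.77, 4.27 and 4.04 in LECs on its brighter probe, and 2.87, 2.82 and 2.75 against 2.55, 3.11 and 2.76 on the other. The difference was 0.08 ± 0.14 on the first and -0.01 ± 0.15 on the second, with overlapping groups on both.

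The 5 sensors of nucleic acid held the largest difference of the list. Zbp1, a sensor of Z-form nucleic acid that can start necroptosis, read -0.34, -0.32 and -0.07 in VECs and 3.25, 3.52 and 3.18 in LECs. It was detected above background on each of the 6 arrays, and LECs had an 11.8-fold higher signal (3.56 ± 0.12, limma adjusted p = 3.8e-06). A second Zbp1 probe read -2.43, -2.65 and -2.30 in VECs and 1.65, 2.36 and 1.99 in LECs, a 22.1-fold difference. On both probes the LEC arrays stood far above the VEC arrays, and within slide row 1 the first gave 3.49. Eif2ak2, the kinase PKR that halts translation when it binds double-stranded RNA, read 0.59, 0.56 and 0.77 in VECs and 0.87, 0.97 and 0.86 in LECs. Those groups were close together without overlapping (0.26 ± 0.081, limma adjusted p = 0.032), and the call was lost without any 1 of 5 arrays, all but VEC 4, with adjusted p up to 0.11. Ifih1, the RNA sensor MDA5, read 1.72, 1.73 and 1.68 in VECs and 1.31, 1.29 and 1.25 in LECs. Its signal was 1.34-fold lower in LECs with tight groups (-0.43 ± 0.058, limma adjusted p = 0.0011), but did not pass without scaling between arrays (adjusted p = 0.16). Ddx58, the RNA sensor RIG-I, had 4 probes with differences of -0.12 to -0.36, of which the dimmest passed and its brightest gave -0.12 ± 0.056 (limma adjusted p = 0.11). Dhx58, their relative LGP2, gave a difference of 0.00 ± 0.11.

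In the OAS family, whose enzymes make the 2′-5′ oligoadenylates that activate RNase L, 2 of 4 tested genes were lower in LECs and none was higher. The shares of all genes were 32.0% lower and 34.9% higher. Oas2 read 1.54, 1.52 and 1.92 in VECs and -1.35, 0.02 and -0.46 in LECs. It had the largest fall of the list, 4.79-fold (-2.26 ± 0.35, limma adjusted p = 0.0019), and the LEC arrays were spread over 1.37 between LEC 6 and LEC 7, more than for any other ISG but Gbp4 and Igtp. A second Oas2 probe was well above background on no array. Oasl1, an OAS-like protein without that enzyme activity, read 3.38, 3.40 and 2.99 in VECs and 1.86, 2.05 and 2.07 in LECs. It was 2.40-fold lower in LECs without overlap (-1.26 ± 0.13, limma adjusted p = 0.00038), and a second probe gave -1.34 ± 0.15. Its direct neighbor Oasl2 gave -0.38 ± 0.14 (limma adjusted p = 0.06; 0.0064 without LEC 7) and Oas1a gave 0.16 ± 0.11 (adjusted p = 0.24). 

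Of the 3 IFIT genes, which lie in 1 run on the chromosome and encode proteins that bind foreign RNA, 2 were lower in LECs. The share of all genes lower in LECs was 32.0%. Ifit1 read 2.66, 2.62 and 2.52 in VECs and 1.29, 1.55 and 1.39 in LECs. All LEC arrays were lower, by 2.28-fold (-1.19 ± 0.09, limma adjusted p = 8.9e-05). Ifit2 read 1.45, 1.42 and 1.35 in VECs and 0.99, 0.88 and 0.91 in LECs, 1.39-fold lower without overlap (-0.48 ± 0.065, limma adjusted p = 0.0011; 0.11 without scaling between arrays). Ifit3 gave the opposite sign without passing the test (0.18 ± 0.074, limma adjusted p = 0.08), and its window and that of Ifit1 each held 2 matches of the response element core.

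Of the 9 restriction factors, proteins that block entry, copying or release of viruses, 6 were tested. Of these, 1 was higher in LECs and 3 were lower, beside 34.9% and 32.0% of all genes. Bst2, which tethers budding virus to the cell surface, read 4.27, 4.28 and 4.34 in VECs and 5.18, 5.41 and 5.21 in LECs. Each group was tight and the LEC arrays were 1.96-fold higher (0.97 ± 0.083, limma adjusted p = 0.00015). Bst2 is also a marker of plasmacytoid dendritic cells. Of the 5 markers listed for those cells, 3 were tested and none passed (median difference -0.10). Ccr9 and Ly6d did not reach the background limit on all arrays of either group. The part of such cells in the Bst2 difference was not tested. Ifitm1, a membrane protein that hinders virus fusion, read -0.08, -0.22 and 0.20 in VECs and -1.64, -1.08 and -1.67 in LECs. It was 2.70-fold lower in LECs with no overlap (-1.43 ± 0.19, limma adjusted p = 0.0011), while Ifitm3, its neighbor, gave -0.24 ± 0.092 (adjusted p = 0.059; 0.034 without VEC 4). Rsad2, the viperin gene, read 2.17, 2.25 and 2.06 in VECs and 1.01, 1.97 and 1.41 in LECs. LEC 7 came close to the VEC arrays (-0.70 ± 0.24, 1.62-fold lower, limma adjusted p = 0.042), and the call was lost without any 1 of 5 arrays, all but LEC 7, with adjusted p up to 0.11. A dimmer Rsad2 probe gave -0.96 ± 0.23 (adjusted p = 0.012), and within slide row 1 the difference was -1.16 (adjusted p = 0.013). Its direct neighbor Cmpk2, a mitochondrial nucleotide kinase, gave -0.21 ± 0.081 (limma adjusted p = 0.065). Isg20, an exonuclease, read 1.87, 1.92 and 1.62 in VECs and 1.30, 1.19 and 1.10 in LECs, 1.52-fold lower without overlap (-0.61 ± 0.10, limma adjusted p = 0.003). A dimmer Isg20 probe, of another transcript accession, gave -0.17 ± 0.092 and did not pass.

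In the ISG15 system, in which the ubiquitin-like protein ISG15 is joined to other proteins and USP18 removes it, the modifier and its protease went opposite ways. Isg15 read 6.43, 6.42 and 5.6 in VECs and 5.31, 5.42 and 4.92 in LECs. VEC 4 lay between the other VEC arrays and the LEC arrays, and the signal was 1.92-fold lower in LECs (-0.94 ± 0.26, limma adjusted p = 0.021). That call was lost without VEC 2, VEC 3 or LEC 8 (adjusted p up to 0.067) and within slide row 1 (-0.84, adjusted p = 0.14). Usp18, which also blocks the type I interferon receptor, read 1.59, 1.6 and 1.5 in VECs and 2.30, 2.78 and 2.56 in LECs. All LEC arrays were higher, by 1.98-fold (0.99 ± 0.13, limma adjusted p = 0.00091). Trim25, the ubiquitin ligase that acts on RIG-I, read 5.62, 5.63 and 5.74 in VECs and 4.56, 4.63 and 4.57 in LECs. It was 2.11-fold lower in LECs with no overlap (-1.08 ± 0.065, limma adjusted p = 3.5e-05), and 3.69-fold lower on a second, dimmer probe. Trim30a, a negative regulator of innate signaling, read 2.51, 2.45 and 2.58 in VECs and 2.03, 2.25 and 2.16 in LECs (-0.37 ± 0.082, 1.29-fold lower, limma adjusted p = 0.0087; 0.35 without scaling between arrays). Its groups did not overlap.

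Neither of the 2 ADP-ribosyltransferases passed on its brighter probe. Parp14 gave -0.17 ± 0.11 (limma adjusted p = 0.21) there, but its other probe read 2.83, 2.84 and 2.74 in VECs and 1.46, 2.06 and 1.75 in LECs, 2.07-fold lower (-1.05 ± 0.15, adjusted p = 0.0015), so that the call depends on the probe. Parp9 gave -0.02 ± 0.096 (adjusted p = 0.85) and, on its other probe, -0.38 ± 0.14 (adjusted p = 0.053).

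The 9 interferon-inducible GTPases, which gather on vacuoles that hold intracellular microbes, split into 3 higher in LECs, 1 lower and 5 that did not pass. Of all genes, 34.9% were higher and 32.0% lower. Gbp2, a guanylate-binding protein, read 4.44, 4.44 and 4.70 in VECs and 5.16, 6.01 and 5.6 in LECs. All LEC arrays were higher, by 2.09-fold on average (1.06 ± 0.22, limma adjusted p = 0.0064), and within slide row 1 by 0.63 (adjusted p = 0.051). Irgm2, a regulator of the immunity-related GTPases, read 3.31, 3.32 and 3.71 in VECs and 3.78, 4.89 and 4.39 in LECs. LEC 6 was just above VEC 4 and the other LEC arrays well above it (0.91 ± 0.29, 1.88-fold higher, limma adjusted p = 0.033). That call was lost without VEC 2, VEC 3, LEC 7 or LEC 8, with adjusted p up to 0.093, and within slide row 1 the difference was 0.34 (adjusted p = 0.33). Gbp7 read 2.42, 2.38 and 2.63 in VECs and 2.72, 3.56 and 3.23 in LECs. The order was the same as for Irgm2, with LEC 6 next to VEC 4 (0.69 ± 0.22, 1.62-fold higher, limma adjusted p = 0.031); the call was lost without any 1 array other than LEC 6, with adjusted p up to 0.09, and within slide row 1 the difference was 0.24 (adjusted p = 0.30). Irgm1, related to Irgm2 and like it a regulator of the effector GTPases, went the other way, with 4.72, 4.72 and 4.43 in VECs and 3.07, 3.85 and 3.48 in LECs. It was 2.23-fold lower in LECs without overlap (-1.16 ± 0.21, limma adjusted p = 0.0037), and its other 2 probes gave -1.16 ± 0.16 and -1.13 ± 0.20.

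For the 5 GTPases that did not pass, the groups overlapped. Gbp4 read 4.06, 4.10 and 4.54 in VECs and 3.24, 4.82 and 4.29 in LECs, and Igtp (also called Irgm3) read 4.60, 4.61 and 4.87 in VECs and 4.29, 5.70 and 5.15 in LECs. On both, LEC 6 was below every VEC array and LEC 7 above every VEC array. The differences were -0.12 ± 0.40 for Gbp4 and 0.35 ± 0.35 for Igtp (limma adjusted p = 0.82 and 0.40). Without LEC 6, Igtp was higher in LECs by 0.73 (adjusted p = 0.025), and for Gbp4 the difference was -0.99 within slide row 1, where LEC 6, its lowest array, stands alone for LECs. Gbp3, Gbp5 and Iigp1 gave 0.13 ± 0.17, -0.53 ± 0.29 and -0.44 ± 0.24. Without LEC 7, Iigp1 was lower in LECs with adjusted p = 0.027. In the run of neighboring genes Gbp5, Gbp7, Gbp3 and Gbp2, Gbp7 and Gbp2 passed and the other two did not, and a difference between neighbors was not tested. Members of the Gbp, Oas and Ifit families are alike in sequence, and cross-hybridization between their probes was not tested.

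Of the other 3 induced genes, 2 were higher in LECs and 1 was lower, beside 34.9% and 32.0% of all genes. Ifi44 read 2.15, 2.03 and 2.20 in VECs and 3.15, 3.41 and 3.26 in LECs, 2.21-fold higher without overlap (1.15 ± 0.092, limma adjusted p = 0.00012). Xaf1, a partner of the inhibitor of apoptosis XIAP, read 2.95, 2.84 and 3.01 in VECs and 3.76, 3.98 and 3.63 in LECs. All LEC arrays were higher, by 1.81-fold (0.86 ± 0.11, limma adjusted p = 0.00077), and a second probe gave 0.94 ± 0.095. Rtp4, named as a chaperone of membrane receptors, read 4.94, 4.99 and 4.65 in VECs and 4.11, 4.51 and 4.22 in LECs, 1.5-fold lower without overlap (-0.58 ± 0.14, limma adjusted p = 0.012).

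The ISGs were more variable among the LEC samples than among the VEC samples, and in one order. LEC 7 held the highest LEC signal for 35 of the 40 ISGs (87.5%) and LEC 6 the lowest for 30 (75%), while over all genes tested LEC 7 was highest for 34.1% and LEC 6 lowest for 29.5%. The SD was larger among LEC arrays than among VEC arrays for 34 of 40 ISGs (85%), beside 51.4% of all genes, with median SDs of 0.20 and 0.11 for the ISGs and 0.096 and 0.095 for all genes. All 9 GTPases followed the order LEC 6, LEC 8, LEC 7 from lowest to highest, with a median of 0.94 between the outer arrays, a gap of over 0.5 for each of the 9 and for 4.88% of all genes. For the 31 ISGs of other roles the median gap was 0.26, and LEC 7 was highest for 26. The largest gaps between LEC 7 and LEC 6 were 1.58 for Gbp4, 1.41 for Igtp, 1.37 for Oas2, 1.11 for Irgm2, 0.97 for Iigp1 and 0.96 for Rsad2. The gap was near 0 for Ddx58 (-0.03), Ifih1 (-0.02), Trim25 (0.07), Isg20 (-0.11) and Ifit2 (-0.11). Over the ISGs, VEC 2 and VEC 3 differed by a median of only 0.036, and they differed from VEC 4 by 0.15 and 0.20. Between LEC arrays these medians were 0.20 to 0.36. Among the VEC arrays VEC 4 was highest for 20 of the 40 ISGs and lowest for 19, beside 37.3% and 44.9% of all genes. Of the 9 GTPases, VEC 4 was highest for 7 and lowest for 2. These shares have no test, since the arrays are 3 a group. Other values differed between these arrays as well. LEC 7 had the fewest probes well above background and LEC 6 the most. LEC 6 was in slide row 1, and LEC 7 and LEC 8 in row 2. The summed signal of the 4 blood vascular markers was 29.8 on LEC 6, 28.7 on LEC 8 and 39.3 on LEC 7. Each of them was highest on LEC 7 among the LEC arrays, with the widest gap for Ly6c1 (3.57, 3.57 and 4.21). In the same order of arrays, the 5 plasmacytoid dendritic cell markers summed to 263, 293 and 307. Nearly all of that sum came from Siglech alone (8.04, 8.19 and 8.26), on 1 of its 2 named probes. The other Siglech probe did not enter the test, which took probes well above background on all 3 arrays of a group. The tested one read 8.44, 8.53 and 8.24 in VECs. The 4 pan-endothelial markers summed to 60.2, 58.0 and 52.9. Their part in the spread was not tested. Without scaling between arrays LEC 7 was highest for 20 of the 40, and LEC 6 lowest for 30.

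**Figure D2:**
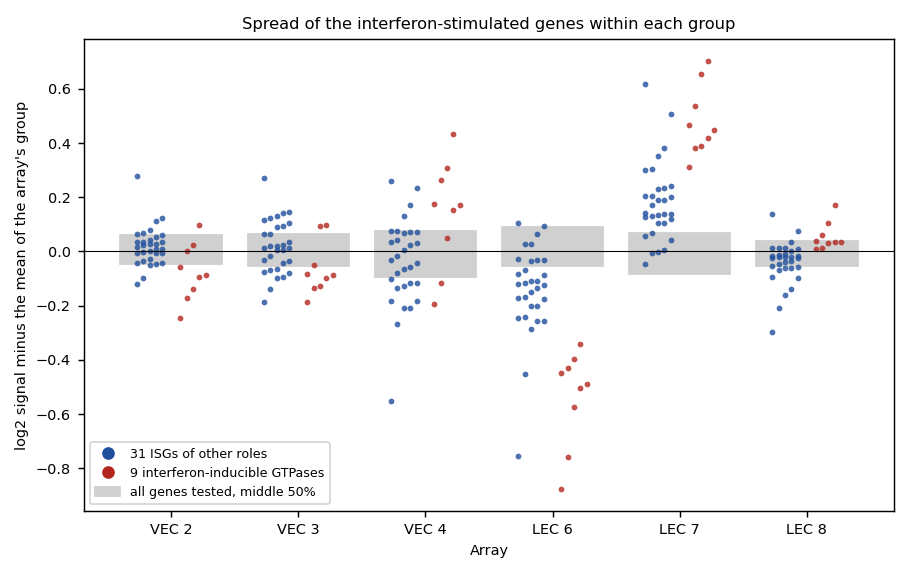
Deviation of each tested ISG from the mean of its group on each array (vertical axis, log2; horizontal axis, the 6 arrays), with the 9 GTPases in red, the 31 ISGs of other roles in blue and the middle 50% of all genes tested as a gray band. All 9 GTPases lie below the band on LEC 6 and above it on LEC 7, and the other ISGs lean the same way.

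The difference between the cell types depended on which LEC arrays were used. With the slide row as a block, only LEC 6 is set against the VEC arrays. The median difference of the ISGs was then -0.39 in place of -0.186, and that of all genes was 0.03. LEC 6 was the lowest LEC array for 30 of the 40 ISGs, so that the lower median follows from that order. Zbp1 gave 3.49, Ifi44 1.03, Bst2 0.88, Xaf1 0.83 and Usp18 0.74, while Oas2 gave -3.02 and Irf1 -2.04. Of the GTPases, on all of which LEC 6 was the lowest LEC array, Irgm1 gave -1.55, Gbp4 -0.99, Iigp1 -0.94, Gbp2 0.63, Irgm2 0.34 and Gbp7 0.24. Slide row and LEC sample cannot be told apart here, since row 1 holds a single LEC array.

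**Figure D3:**
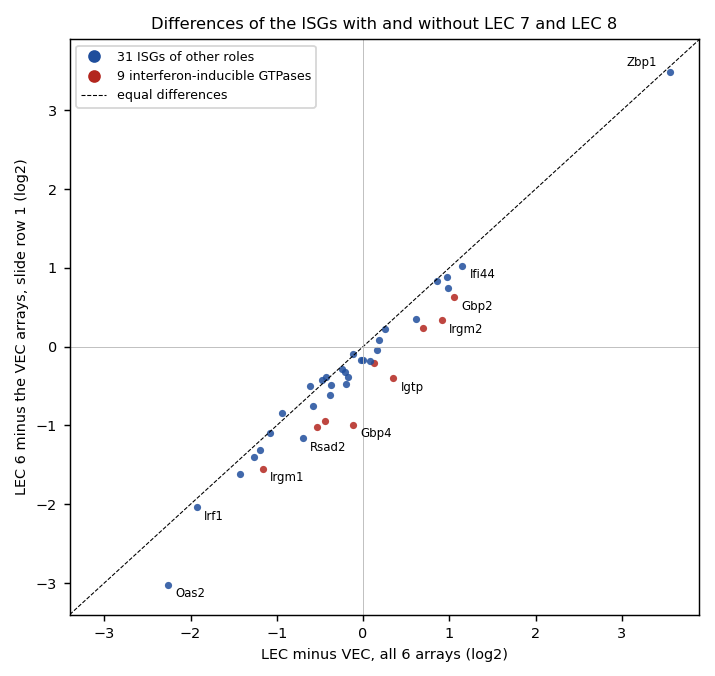
Difference LEC minus VEC (log2) of the 40 tested ISGs from all 6 arrays (horizontal axis) and from LEC 6 against the VEC arrays in slide row 1 (vertical axis), with GTPases in red, other roles in blue and the line of equal differences dashed. Zbp1, Ifi44 and Irf1 lie near the line, and the 9 GTPases lie below it, with Gbp4 at -0.12 and -0.99.

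Beside the ISGs, 110 further genes of the interferon pathway were listed, of which 59 were put in a class of further interferon-induced genes. Induction by interferon was not used to sort the genes of the other classes. Of the 94 tested, 33 were higher in LECs, 29 lower and 32 not past the threshold (median difference -0.01), close to the 34.9% and 32.0% of all genes. Without scaling between arrays, where the median of all genes was 0.24, 40 were higher and 24 lower. Of 15 ligand genes, 7 were tested and only Ifna11 passed (-0.69 ± 0.16, 1.61-fold lower in LECs, limma adjusted p = 0.01; 0.10 within slide row 1), and the probes of Ifnb1 and Ifng did not reach the background limit on all arrays of either group and were not tested. Interferon alpha genes are alike in sequence, so that one probe may read several. Of the 6 receptor chains, Ifnlr1, the specific chain of the type III receptor, stood out with -1.05, -1.11 and -1.28 in VECs and -5.23, -5.97 and -5.41 in LECs. Every VEC array and no LEC array read it well above background, and it was at least 10.2-fold lower in LECs by the lowest measurable signal of those arrays (limma adjusted p = 1.1e-05). Its partner Il10rb went the other way, with 2.66, 2.60 and 2.70 in VECs and 3.47, 3.04 and 3.21 in LECs (0.59 ± 0.12, 1.5-fold higher, adjusted p = 0.0059). Of the type I receptor, Ifnar2 read 2.92, 3.02 and 2.88 in VECs and 3.78, 3.64 and 3.68 in LECs, 1.69-fold higher in LECs (0.76 ± 0.072, limma adjusted p = 0.00023). Its other chain Ifnar1 gave -0.11 ± 0.076 and did not pass on its brightest probe, while a dimmer one was higher in LECs (adjusted p = 0.0032). Of the interferon gamma receptor, Ifngr2 read -0.20, -0.09 and -0.03 in VECs and 0.65, 0.49 and 0.60 in LECs (0.68 ± 0.077, 1.61-fold higher, limma adjusted p = 5e-04). Ifngr1 gave 0.13 ± 0.065 and did not pass (adjusted p = 0.13).

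The kinases and STATs did not share a direction. Stat2, of the type I and III interferon response, overlapped between the groups (0.11 ± 0.17, adjusted p = 0.60). Stat3, which carries interleukin signals, read 5.0, 5.07 and 5.10 in VECs and 4.09, 4.21 and 4.15 in LECs, 1.88-fold lower (-0.91 ± 0.066, limma adjusted p = 7.4e-05). Jak2, the kinase of the interferon gamma receptor, was 2.15-fold lower in LECs (-1.10 ± 0.076, limma adjusted p = 6e-05) and Jak1 1.24-fold lower (-0.31 ± 0.065, adjusted p = 0.0071; 0.054 within slide row 1), while Tyk2, of the type I and III receptors, was 1.42-fold higher (0.50 ± 0.066, adjusted p = 0.00095). Among 5 negative regulators the SOCS genes moved most. Socs1, which shuts off JAK activity after interferon, read 2.61, 2.60 and 2.15 in VECs and -0.57, 0.30 and 0.09 in LECs, 5.69-fold lower (-2.51 ± 0.25, limma adjusted p = 0.00031). Socs3, which acts mainly on STAT3 signals, read 8.34, 8.35 and 8.10 in VECs and 5.73, 5.29 and 5.54 in LECs, 6.70-fold lower (-2.74 ± 0.13, adjusted p = 1.4e-05). On both genes no LEC array came near a VEC array. The 4 probes of Pias1 went different ways, from -0.24 ± 0.084 on the brightest (limma adjusted p = 0.047; up to 0.12 without 1 array) to 0.61 ± 0.08 on another (adjusted p = 0.00096).

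Among other genes of the interferon regulatory factors, Irf3 was higher in LECs (0.37 ± 0.064, limma adjusted p = 0.0031) and Irf2bpl and Irf2bp1 were lower (-0.94 ± 0.13 and -0.31 ± 0.072). Of 11 genes that lead to interferon, 7 were lower in LECs and 3 higher, beside 32.0% and 34.9% of all genes. Myd88, the adaptor of most Toll-like receptors, read 4.0, 4.07 and 3.85 in VECs and 2.11, 2.32 and 2.14 in LECs, 3.45-fold lower (-1.79 ± 0.092, limma adjusted p = 1.8e-05). The DNA sensor Cgas (-1.56 ± 0.14, adjusted p = 0.00022) and the adaptor of Tlr3, Ticam1 (-1.45 ± 0.056, adjusted p = 6e-06), were lower too, with every LEC array under every VEC array. Ikbke, a kinase that activates IRF3 and IRF7, read -5.35, -6.77 and -5.30 in VECs, on none of which it was well above background, and -1.59, -1.61 and -1.67 in LECs. By the lowest measurable signal, LECs were at least 8.66-fold higher (limma adjusted p = 0.00024). A second Ikbke probe, of another transcript accession, was well above background on no array of either group. Tlr3 (0.65 ± 0.12, adjusted p = 0.0048; 0.058 within slide row 1) and Mavs (0.55 ± 0.08, adjusted p = 0.0015) were higher in LECs by smaller amounts.

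**Figure D4:**
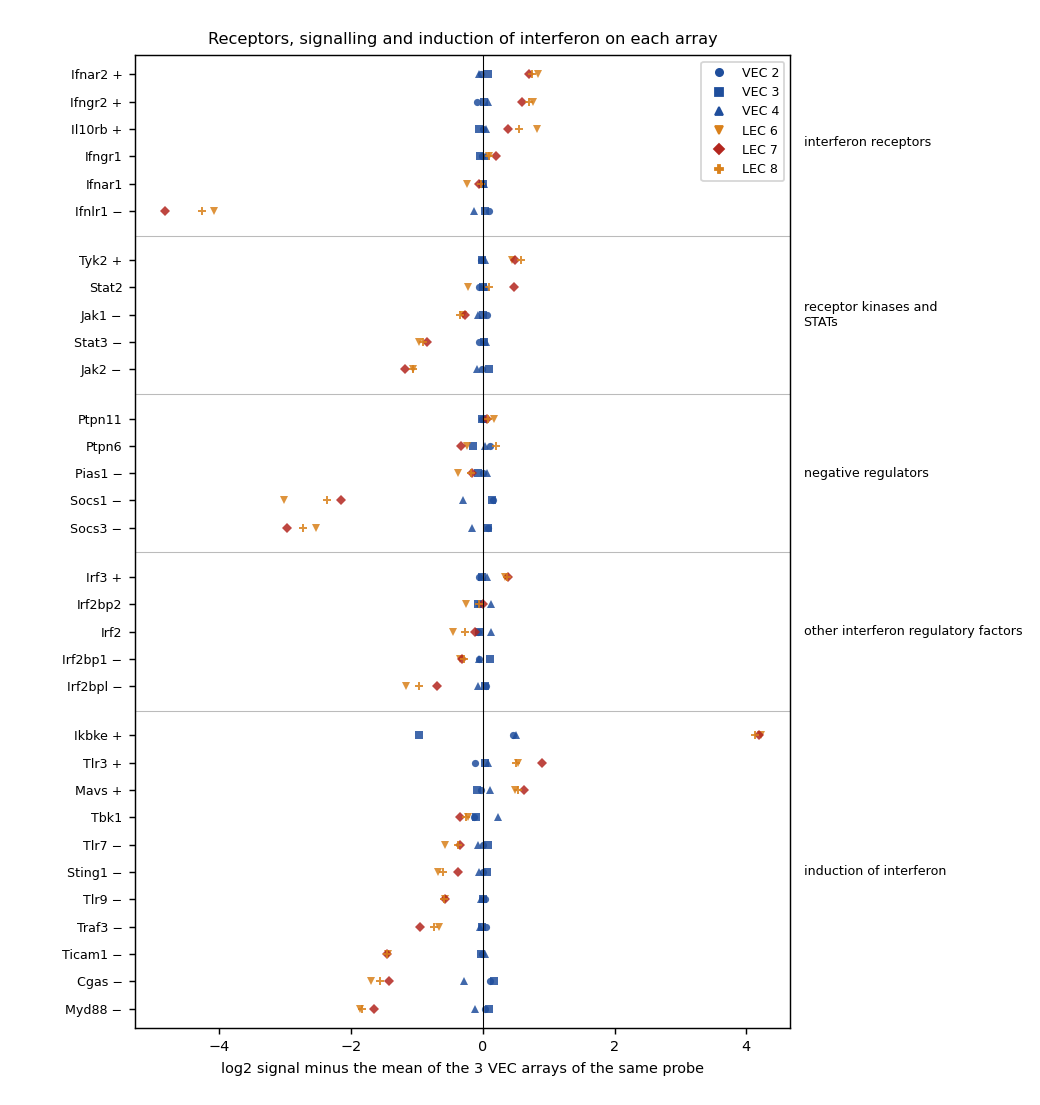
Signal of receptors, kinases, STATs, negative regulators, further regulatory factors and inducers of interferon on each array, as the log2 signal minus the mean of the 3 VEC arrays of the same probe (horizontal axis), with symbols and marks as for the ISGs. Ifnlr1, Socs1 and Socs3 lie far to the left for all LEC arrays and Ikbke far to the right.

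A further 59 interferon-induced genes outside the 44 were listed, of which 53 were tested, with 24 higher in LECs and 11 lower (median difference 0.18), beside 34.9% and 32.0% of all genes. Ifi27l2a, a mitochondrial interferon-induced protein, read 1.51, 1.54 and 1.67 in VECs and 6.45, 6.51 and 6.38 in LECs, 29.3-fold higher (4.87 ± 0.074, limma adjusted p = 4.9e-07). A second Ifi27l2a probe gave a 4.28-fold difference (2.10 ± 0.18). Gbp6, a GTPase of the same family as Gbp2, read 1.43, 1.46 and 1.89 in VECs and 2.62, 3.99 and 3.43 in LECs, 3.37-fold higher (1.75 ± 0.35, limma adjusted p = 0.0057) and again with LEC 6 lowest and LEC 7 highest. Parp11, an ADP-ribosyltransferase, was 3.14-fold higher (1.65 ± 0.17, adjusted p = 0.00031). Downward, the chemokine gene Cxcl10, which draws T cells, read 6.30, 6.28 and 6.17 in VECs and 3.38, 4.29 and 3.64 in LECs, 5.57-fold lower (-2.48 ± 0.23, limma adjusted p = 0.00021). Ifi204, of the family of DNA sensors with HIN domains, read 3.01, 2.99 and 3.08 in VECs and 0.70, 0.69 and 0.64 in LECs, 5.09-fold lower (-2.35 ± 0.061, adjusted p = 1.4e-06). Ifi47, an immunity-related GTPase, was 2.91-fold lower (-1.54 ± 0.18, adjusted p = 0.00059). The gap between LEC 7 and LEC 6 was 2.17 for Cxcl9, a chemokine gene that interferon gamma induces, 1.37 for Gbp6 and 1.34 for Cd274, the gene of the checkpoint ligand PD-L1. Over the 94 tested pathway genes LEC 7 was the highest LEC array for 61 (64.9%), beside 34.1% of all genes. LEC 6 was the lowest for 56 (59.6%), beside 29.5%. These counts were made separately, and 53 of the 94 are the interferon-induced genes of this paragraph.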

How the data were processed

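Total RNA of sorted VECs and LECs (3 samples each) was labeled with Cy3 and hybridized to 1-color Agilent mouse arrays. Per the file headers, the authors made the deposited intensities (processed signal, background subtracted) with Agilent Feature Extraction 12.0.3.1. The log2 values of a second deposited table matched log2 of those intensities minus a constant per array within 0.01 for 99.92% to 99.95% of probes; its unit and centering are not stated there, and it served as an alternative. Here each intensity was taken as log2 minus the 75th percentile of its array; spots marked as outliers were dropped and replicate spots averaged. Probes were named by RefSeq accession (GRCm38.p6). Tested were the 33776 probes whose 3 VEC or 3 LEC spots were all well above background. limma 3.58.1 in R 4.3.3 compared LEC with VEC, without covariates, with Benjamini-Hochberg adjustment over all tested probes and a threshold of 0.05. The tested probe with the brightest mean stands for its gene. An "at least" fold sets the bright group's mean against the lowest signal well above background on each dim array. The code was tested on simulated data. No probe was saturated. The number of arrays limits the precision. The members and lists were chosen with earlier results of these data known. All members are named; array values are given, within each role, for up to 3 genes a direction with the largest differences past the threshold, and for genes whose probes differ in sign; for the pathway list, up to 3 a direction and class. Values of other genes were chosen after they were seen. Alternatives were other background corrections, scalings, filters, fits and thresholds, the mean of a gene's probes, the slide row as a block, each array left out and, added after seeing the data, VEC 2 and VEC 3 averaged as 1 sample. Some genes of the pathway list are counted but not reported here by name.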

Additional observations from a re-analysis of the deposited data

How the results depend on the processing

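Over 21 alternatives, 5 of the 10 ISGs higher in LECs (Zbp1, Ifi44, Bst2, Usp18, Xaf1) and 8 of the 14 lower (Irf1, Oas2, Oasl1, Ifit1, Ifitm1, Irgm1, Trim25, Isg20) kept their direction and side of the threshold in every one, and no member that passed changed sign. At a threshold of 0.01, 6 ISGs were higher in LECs and 11 lower. With the slide row as a block, where LEC 6 alone is set against the VEC arrays, the median difference moved down to -0.39. It was 0.04 without scaling between arrays, where the median of all genes was 0.24. Without scaling, 12 ISGs were higher and 10 lower, and LEC 7 was the highest LEC array for 20 of the 40. Without any 1 array, 7 to 10 ISGs were higher, 12 to 19 lower, and the median difference was -0.29 to -0.10. With VEC 2 and VEC 3 averaged as 1 sample, 7 were higher and 12 lower. Why these values moved was not tested, and the shares of all genes that passed in these runs were not counted. No paired analysis was possible because the groups share no replicate numbers. Low signal limits Oas3 and the dimmer side of Ifnlr1 and Ikbke.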
